A study of Mus musculus with 24 samples.

Results

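The measurements below compare how mouse embryonic fibroblasts (MEFs, cultured connective tissue cells grown from embryos) of 2 genotypes responded to tunicamycin, an inhibitor of N-glycosylation that causes unfolded proteins to gather in the endoplasmic reticulum (ER). The comparison uses 12 of the 24 one-colour expression arrays of the study, chosen by genotype and treatment: 4 of untreated wild-type cells, 4 of wild-type cells after 12 h in 2 µg per mL tunicamycin, and 2 of each kind from eIF2α A/A cells. A/A cells are homozygous for a mutation that puts alanine in place of the serine of eIF2α that stress kinases phosphorylate. The duration comes from the sample labels; the general protocol allows 12 or 24 h. The labels name neither the number of embryos or clones behind a genotype nor separate cultures behind the replicates, so p-values measure the spread between these arrays, which may be technical. The rest of the study held Perk-null and Atf4-null cells under the same treatment and Fv2E-PERK cells, whose PERK kinase domain is switched on by a compound labelled AP without ER stress. Of these, only the values of the Fv2E-PERK arrays, 2 untreated and 2 given AP for 12 h, are described below. The model was fitted on all 24 arrays, so the null cells' arrays enter its standard errors and p-values.

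eIF2 carries the initiator tRNA to the ribosome, and phosphorylation of its α subunit slows its recycling. Most translation then falls, while a few mRNAs with upstream reading frames, that of the transcription factor ATF4 among them, are translated more. ATF4 and its partners induce genes for amino acid supply, tRNA charging and the ending of the response, a programme called the integrated stress response (ISR). In ER stress the kinase is PERK, and 2 other sensors, IRE1 with its target XBP1 and ATF6, act beside it and chiefly induce ER chaperones and ER-associated degradation.

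The wild-type arrays came from 2 lines: replicates 1 and 2 were run with the Atf4-null arrays and replicates 3 and 4 with the Perk-null arrays, and they are called the Atf4-series and the Perk-series wild type here. Xist was well above background on all 4 Atf4-series arrays and on none of the Perk-series arrays, and Ddx3y and Eif2s3y showed the reverse. On the A/A arrays Xist was well above background throughout, and Ddx3y and Eif2s3y on none. The A/A arrays shared 1 slide and 1 scan, as did the Perk-series arrays. The Atf4-series lay in scan run 1, the Perk-series in run 2 and the A/A arrays in run 3. No wild-type array was run with the A/A arrays, so genotype cannot be told apart from cell line and scan run. The Atf4-series arrays lay on 2 slides, 1 per treatment, so that slide and treatment cannot be told apart there. The median SD per gene within a group was 0.235 and 0.231 (log2) in the Atf4-series, 0.0873 and 0.0721 in the Perk-series and 0.0895 and 0.0671 in A/A, untreated and treated. Of 16 fibroblast markers, 14 were well above background on all 12 arrays, Fap on 6 and Lum on 2. Of 12 muscle markers 6 were well above background on all 12 arrays and 5 on none.

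Levels are log2 of the scanner's processed signal minus the 75th percentile of the same array, so 0 is a signal at that percentile. A response is the treated minus the untreated level within a genotype, and the difference is the A/A response minus the wild-type response, given ± its standard error. A gene was called at a Benjamini-Hochberg adjusted p under 0.05 from limma over 14444 tested genes. It is said to have held when it was called with the same sign against all wild-type arrays, against the Atf4-series alone and against the Perk-series alone. These 3 contrasts share the A/A arrays and are not independent.

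The tunicamycin response of A/A cells was much smaller than that of wild-type cells. Tunicamycin raised 790 genes at least 2-fold in the wild type (5.47% of those tested); of these 512 had a called smaller or reversed response in A/A (64.8%) and 111 were called upward there (14.1%). Of 1071 that fell at least 2-fold (7.41%), 534 had a called smaller or reversed response (49.9%) and 54 were called downward in A/A (5.04%). Wild-type cells changed 5420 of the 14444 genes (37.5%), 3065 upward and 2355 downward, and A/A cells changed 708 (4.9%), 445 upward (3.08%) and 263 downward (1.82%). The wild-type groups held 4 arrays each and the A/A groups 2, so these counts are not of like precision. With 2 arrays per group, 5352 genes were called in the Atf4-series alone and 3065 in the Perk-series alone. The A/A count depends on how the spread between arrays is estimated. It was 175 to 235 without any 1 of the 4 A/A arrays, 1991 with scan time as a random block and 5384 with array weights, so a change that was not called in A/A cells is not shown to be absent. The wild-type count was 5468 with scan time as a random block and 7874 with array weights, so the gap between the counts also depends on that estimate. The difference between the responses was called for 2632 genes (18.2%), 1459 lower (10.1%) and 1173 higher (8.12%) in A/A. Leaving out any of the 4 A/A arrays brought the 2632 down to between 1405 and 1573. With quantile normalization the split was 1169 lower and 1502 higher, and the median difference over all genes moved from -0.06 to 0.07, so the balance of directions depends on the scaling.

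Against the Atf4-series alone 3793 genes were called (26.3%), and against the Perk-series alone 1931 (13.4%). The difference held for 1370 genes (9.48%), 786 lower (5.44%) and 584 higher (4.04%), and 786 to 893 genes held in all without any 1 of the A/A arrays. Without untreated wild-type replicate 3 or treated wild-type replicate 3 or 4, which are Perk-series arrays, 849, 910 and 840 genes held. Of the 1262 called genes that did not hold, 1037 were not called against the Perk-series and 338 not against the Atf4-series. Among the 786 lower genes, 727 had risen in wild-type cells. Of those 727, 636 had no called change in A/A cells, 26 still rose and 65 fell. Among the 584 higher genes, 525 had fallen in wild-type cells, of which 445 had no called change in A/A cells, 80 rose and 0 fell. The wild-type arrays enter both the response and the difference, so these shares describe the genes and test nothing further.

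Genes chosen in 1 wild-type line give a comparison in arrays that played no part in the choice. In the Atf4-series 1239 genes rose at least 2-fold, by a median of 1.47 on the log2 scale. The same genes moved by a median of 0.74 in the Perk-series and 0.06 in A/A cells, and 50.4% of them were called upward in the Perk-series (12.2% of all tested genes) against 9.2% in A/A (3.08% of all). Of 673 genes raised at least 2-fold in the Perk-series (median 1.52), the Atf4-series moved the median gene by 1.31 and A/A cells by 0.13. For the 691 genes lowered at least 2-fold in the Perk-series (median -1.57), the medians were -1.44 in the Atf4-series and 0.02 in A/A. The overlap was smallest for the 1444 genes lowered at least 2-fold in the Atf4-series (median -1.86), which moved by a median of -0.74 in the Perk-series, where 40.6% were called downward, and by 0.01 in A/A. The A/A median thus stayed between 0.01 and 0.13 in all 4 sets of genes.

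**Figure D1:**
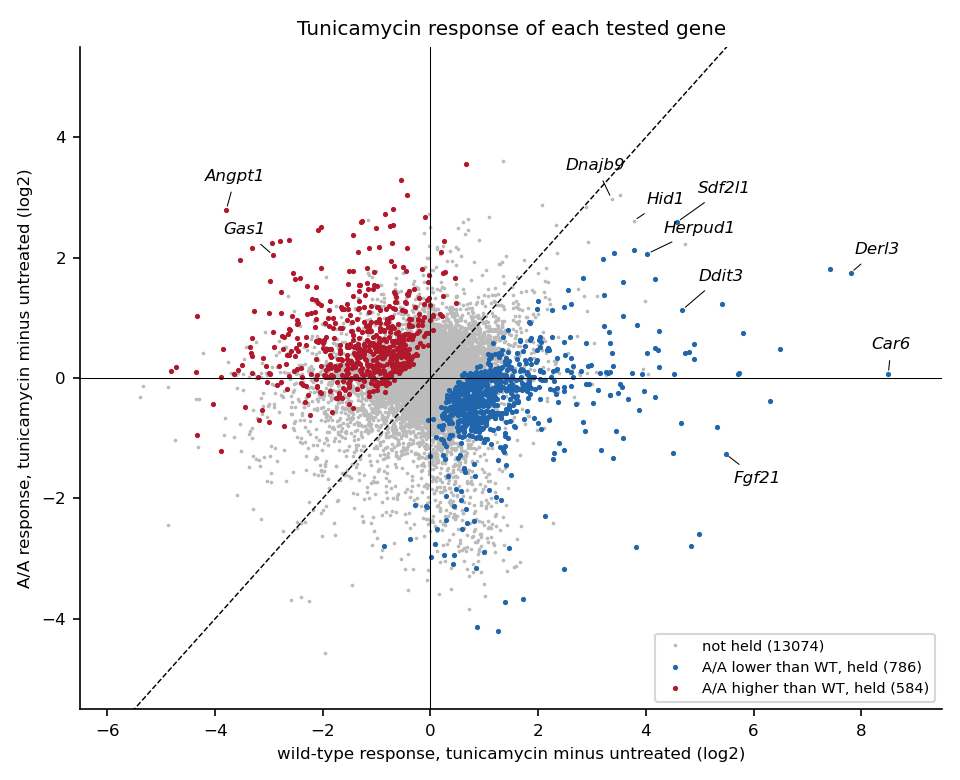
Each point is 1 of 14444 tested genes, placed by its wild-type response (x axis, log2) and its A/A response (y axis, log2), with the dashed line where both are equal. Blue marks the 786 genes whose response was lower in A/A against both wild-type lines and red the 584 that were higher. Most blue points spread along the x axis near a y value of 0. Sdf2l1 and Herpud1, which held, and Dnajb9 and Hid1, which did not, lie above that axis, having risen in A/A cells too.

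Genes of the ISR itself mostly had no called rise in A/A cells. Of 31 tested stress transcription factors and ISR signalling genes 21 rose in wild-type cells and 4 in A/A. Over all tested genes 21.2% rose in wild-type cells and 3.08% in A/A, so both counts were above those shares. The difference was lower for 20 and higher for 1, and 13 and 0 held. Over all tested genes it was lower for 10.1% and higher for 8.12%, and 5.44% and 4.04% held. The counts of each list below stand beside these same shares. The 20 became 12 without untreated or treated A/A replicate 2 and 13 without treated A/A replicate 1. Their median response was 1.51 in wild-type cells and 0.13 in A/A cells, beside 0.07 and 0.01 over all tested genes. Ddit3, which encodes the pro-death factor CHOP, stood at 1.43, 1.86, 1.63 and 1.62 on the untreated wild-type arrays and at 6.29, 6.47, 6.24 and 6.23 on the treated ones. In A/A cells it stood at 0.22 and 0.36 untreated and at 1.41 and 1.44 treated. Treated A/A cells thus reached about the untreated wild-type level, and no treated A/A array came near a treated wild-type array. The rise was 25.5-fold in wild-type and 2.19-fold in A/A cells (difference -3.54 ± 0.24, adjusted p = 6.08e-07), and Ddit3 held.

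Trib3, a pseudokinase induced by ATF4 and CHOP, stood at 3.19, 2.71, 4.24 and 4.22 untreated and at 6.95, 7.07, 7.26 and 7.31 treated in wild-type cells. In A/A cells it was at 1.70 and 2.16 and then at 1.84 and 1.73, so the treated arrays lay within the range of the untreated ones (difference -3.70 ± 0.35, adjusted p = 1.32e-05). Atf3, a partner factor of the same family as ATF4, rose 10.9-fold in wild-type cells. Its A/A levels were -0.56 and -0.53 untreated and -1.51 and -1.33 treated (response -0.87, adjusted p = 0.282; difference -4.32 ± 0.50, adjusted p = 5.38e-05). Ppp1r15a, which encodes the phosphatase subunit GADD34 that dephosphorylates eIF2α, rose 10.3-fold in wild-type cells. It was at 3.06 and 3.08 in untreated and at 3.46 and 3.49 in treated A/A cells (response 0.41, adjusted p = 0.263; difference -2.95 ± 0.23). Chac1, a glutathione-degrading enzyme, rose 14.3-fold in wild-type cells and had an A/A response of 0.88 (adjusted p = 0.273; difference -2.95 ± 0.50). All of these held.

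Several known ISR targets differed in the same direction with less certainty. Gdf15, a secreted stress cytokine, had a difference of -2.98 ± 0.80 (adjusted p = 0.0174) that was called against the Perk-series and not against the Atf4-series (adjusted p = 0.0809). Leaving out any A/A array ended its call over all wild-type arrays, with adjusted p between 0.0538 and 0.0713. Sesn2, an inhibitor of mTORC1 signalling, had a difference of -1.39 ± 0.43 (adjusted p = 0.0353) and was called against neither line alone. Nupr1, a small chromatin-associated stress protein, had one of -1.61 ± 0.44 (adjusted p = 0.0192) and was not called against the Perk-series (adjusted p = 0.0605). Both lost their call without any 1 of the A/A arrays. Vldlr, the very low density lipoprotein receptor, held at -1.60 ± 0.30, with a response of 1.51 in wild-type cells and -0.10 in A/A.

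Atf4 transcripts showed a clear separation on the arrays of this comparison. The level rose from 7.22, 7.20, 7.60 and 7.65 to 8.70, 8.63, 9.07 and 9.14 in wild-type cells, against 7.76 and 7.96 then 7.86 and 7.73 in A/A cells. Every treated wild-type array lay above every other array, and treated A/A arrays overlapped the untreated ones. The model over all 24 arrays, which include Atf4-null cells, gave a wide error (difference -1.53 ± 1.15, adjusted p = 0.381). Fitted on the 12 arrays alone, the same difference had an adjusted p of 0.00042. A further probe of Atf4 gave a difference of -1.88. Eif2s1, the gene for eIF2α, differed by -0.85 ± 0.24 (adjusted p = 0.0238), was not called against the Perk-series, and gave -0.39 with its other probe.

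**Figure D2:**
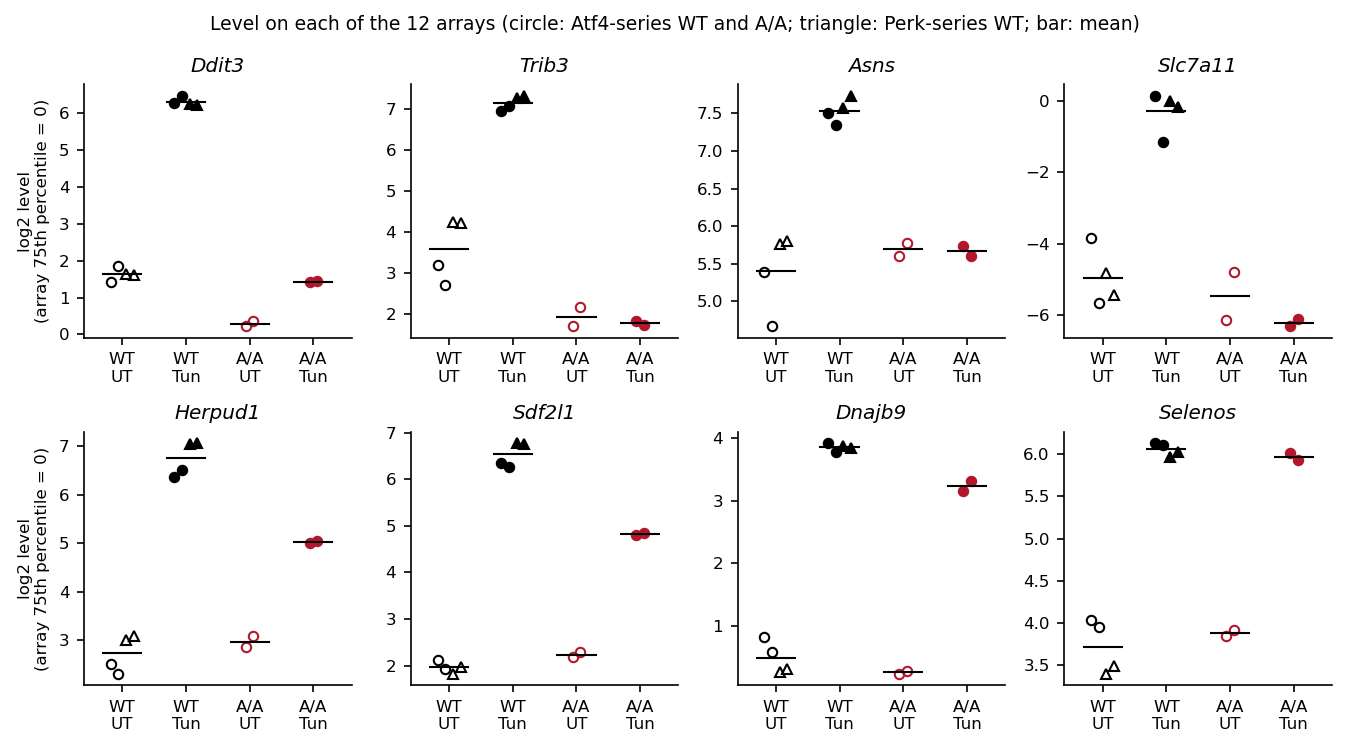
Each panel shows 1 gene, with the log2 level on each of the 12 arrays (y axis, 0 at the array's 75th percentile) for untreated (UT, open) and tunicamycin-treated (Tun, filled) wild-type (WT, black) and A/A (red) cells. Treated wild-type arrays stand alone at the top for Ddit3, Trib3, Asns and Slc7a11. Herpud1 and Sdf2l1 rise in both genotypes with a lower treated A/A level. Dnajb9 and Selenos rise in both without a called difference over all wild-type arrays. The treated A/A levels lie below the treated wild-type ones for Dnajb9 and overlap them for Selenos.

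Within a chosen list of 19 known ISR and unfolded protein response genes, which did not include Derl3 (difference -6.06), the 3 held genes with the most negative differences were Fgf21, Slc7a11 and Atf3. The promoters of these 3 genes are shown by that rank, and each holds the CARE motif, TGATGNAA, to which ATF4 and C/EBP partners bind. Herpud1 and Hspa5 follow, outside that rank, as genes that still rose in A/A cells, Hspa5 having been chosen after its values were seen. Ddit3, which held and also rose in A/A cells, was looked up too, had no match to any motif searched, and is not printed. Over the wider windows used below, Trib3, Asns, Chac1 and Nupr1 of the list also contained CARE, as did 1 of the 2 promoters of Vldlr. Ddit3, Ppp1r15a, Gdf15, Sesn2, Atf4, Eif2s1, Dnajb9, Xbp1 and Hspa5 did not, and Cth had no promoter in the search. Each line gives the 250 bases before the RefSeq transcript start (GRCm38.p6) on the gene's strand, with matches in capitals on either strand. In Fgf21, Slc7a11 and Atf3 the capitals mark CARE. In Herpud1 they mark a CARE and then an ERSE-II (ATTGG, 1 base of any kind, CCACG), and in Hspa5 an ERSE (CCAAT, 9 bases of any kind, CCACG), the elements to which ATF6 and XBP1 bind.
Fgf21, chr7:45615491-45615740, minus strand: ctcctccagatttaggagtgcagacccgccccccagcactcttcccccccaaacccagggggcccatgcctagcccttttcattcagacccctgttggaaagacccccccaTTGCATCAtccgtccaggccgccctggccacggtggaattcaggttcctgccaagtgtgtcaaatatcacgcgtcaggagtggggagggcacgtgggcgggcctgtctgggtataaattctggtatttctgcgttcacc
Slc7a11, chr3:50443614-50443863, minus strand: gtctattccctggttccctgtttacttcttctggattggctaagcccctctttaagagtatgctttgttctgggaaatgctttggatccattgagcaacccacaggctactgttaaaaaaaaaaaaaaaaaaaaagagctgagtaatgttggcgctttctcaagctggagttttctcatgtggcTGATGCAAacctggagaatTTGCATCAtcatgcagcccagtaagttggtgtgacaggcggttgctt
Atf3, chr1:191183334-191183583, minus strand: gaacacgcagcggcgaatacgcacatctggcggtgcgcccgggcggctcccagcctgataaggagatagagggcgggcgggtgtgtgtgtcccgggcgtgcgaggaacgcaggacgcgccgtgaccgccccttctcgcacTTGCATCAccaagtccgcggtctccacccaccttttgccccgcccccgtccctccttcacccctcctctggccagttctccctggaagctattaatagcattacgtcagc
Herpud1, chr8:94386179-94386428, plus strand: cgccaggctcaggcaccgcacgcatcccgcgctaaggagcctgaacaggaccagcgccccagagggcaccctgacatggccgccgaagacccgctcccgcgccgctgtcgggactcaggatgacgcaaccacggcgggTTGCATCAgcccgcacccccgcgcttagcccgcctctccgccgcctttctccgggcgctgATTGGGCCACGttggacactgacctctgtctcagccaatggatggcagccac
Hspa5, chr2:34771840-34772089, plus strand: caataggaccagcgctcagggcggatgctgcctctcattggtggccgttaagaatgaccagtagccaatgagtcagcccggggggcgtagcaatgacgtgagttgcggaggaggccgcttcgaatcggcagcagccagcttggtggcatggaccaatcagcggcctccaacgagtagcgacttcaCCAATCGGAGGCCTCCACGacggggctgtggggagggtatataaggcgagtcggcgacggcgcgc

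Over windows of 250 bases before to 50 after the start, CARE was found in 350 of the 11459 tested genes with a RefSeq promoter (3.05%). It was in 43 of 621 genes that held lower in A/A (6.92%), in 34 of 285 of those also raised at least 2-fold in the wild type (11.9%), and in 8 of 459 that held higher (1.74%). Among 50 genes raised at least 2-fold in the wild type, raised in A/A and without a called difference, 1 held CARE (2%). The ERSE was in 18 of the 11459 genes (0.157%), in 6 of the 285 (2.11%) and in 3 of the 50 (6%). ERSE-II was in 9 of the 11459 (0.0785%), 3 of the 285 (1.05%) and 0 of the 50. The cyclic AMP response element TGACGTCA, searched as another bZIP motif, was in 386 of the 11459 (3.37%), 5 of the 285 (1.75%) and 1 of the 50 (2%). The UPRE core TGACGTGG was in 115 (1%), 4 (1.4%) and 2 (4%) of the same sets. Both strands were searched, CCACG is shared by the ERSE and ERSE-II, and the CRE and UPRE core share TGACGT. A match describes letters in the window and is not a measured binding site.

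Fgf21 and Slc7a11 were dim outside treated wild-type cells. Fgf21 encodes a secreted metabolic hormone. Its levels were -6.89, -6.01, -3.90 and -3.98 untreated and -0.66, 0.57, 0.54 and 0.68 treated in wild-type cells, and -6.59 and -3.80 then -6.41 and -6.5 in A/A cells. The treated A/A arrays were not well above background. Its difference of -6.74 ± 0.85 became -4.52 when signals were raised to the lowest signal well above background, and it held both ways. Slc7a11, the cystine-glutamate exchanger xCT, stood at -3.85, -5.67, -4.83 and -5.44 untreated and at 0.14, -1.16, 0.01 and -0.16 treated in wild-type cells. It was well above background on none of the 4 A/A arrays (difference -5.40 ± 0.70, or -4.01 with raised signals).

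Most amino acid synthesis genes had no called response in A/A cells. Of 23 tested genes of amino acid and one-carbon synthesis, 16 were lower and 0 higher in A/A, and 13 held. The median response was 1.62 in wild-type and -0.03 in A/A cells, and only 1 of the 23 rose in A/A where 19 had risen in wild-type cells. Asns, asparagine synthetase, stood at 5.39, 4.67, 5.76 and 5.80 untreated and at 7.50, 7.34, 7.57 and 7.73 treated in wild-type cells, and at 5.61 and 5.78 then 5.73 and 5.61 in A/A. The 4 A/A arrays lay inside the untreated wild-type range (difference -2.16 ± 0.30, adjusted p = 0.000217). Cth, which makes cysteine from cystathionine, rose 16.1-fold in wild-type cells and had an A/A response of 0.41 (adjusted p = 0.581; difference -3.60 ± 0.40). Gpt2, a mitochondrial alanine transaminase, rose 5.78-fold against an A/A response of 0.14 (difference -2.39 ± 0.28). Aldh1l2, a mitochondrial folate enzyme, differed by -3.21 ± 0.87 (adjusted p = 0.0176) and was not called against the Perk-series (adjusted p = 0.0540) or, over all wild-type arrays, without any 1 of the A/A arrays.

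Of 17 tested amino acid transporters, 9 were lower and 1 higher, and the 9 lower ones held. Their median response was 1.47 in wild-type and 0.21 in A/A cells, with 10 and 3 of the 17 rising. Slc7a3, a cationic amino acid transporter, rose 9.60-fold in wild-type cells and stood at 0.05 and 0.01 untreated and at 0.14 and 0.13 treated in A/A (difference -3.16 ± 0.34). Slc6a9, the glycine transporter GLYT1, still rose in A/A cells. It stood at 3.02 and 3.10 untreated and at 4.66 and 4.76 treated in A/A cells, a rise of 3.14-fold (adjusted p = 0.0079) against 17.9-fold in wild-type cells (difference -2.51 ± 0.40).

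All 22 cytosolic aminoacyl-tRNA synthetases, which charge tRNAs with amino acids, were tested. In A/A 16 were lower and 0 higher, 13 held, and none rose although 20 had risen in wild-type cells. The median response was 1.14 in wild-type cells and -0.16 in A/A. Wars, for tryptophan, stood at 4.58, 4.23, 4.73 and 4.72 untreated and at 7.10, 7.23, 7.11 and 7.22 treated in wild-type cells, against 4.98 and 5.14 then 5.13 and 5.18 in A/A (difference -2.51 ± 0.23, adjusted p = 8.06e-06). The treated A/A arrays lay below every treated wild-type array and within 0.20 of the untreated A/A ones. Nars, for asparagine, differed by -1.96 ± 0.30. Yars, for tyrosine, differed by -1.83 ± 0.26, with an A/A response of -0.59 (adjusted p = 0.138).

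Translation initiation factors and mitochondrial protein quality control followed with smaller changes. Of 29 initiation factors 14 were lower and 0 higher in A/A, and 8 held, with medians of 0.50 in wild-type and -0.21 in A/A cells. Without untreated or treated A/A replicate 2 the 14 became 8 and the 8 held became 3. Without either other A/A array 4 held, and without any 1 of the 4 Perk-series arrays 4 or 5 held. Eif2b3, a subunit of the exchange factor that phosphorylated eIF2 inhibits, was at 2.07, 1.72, 1.98 and 2.16 untreated and at 2.70, 2.76, 3.21 and 3.41 treated in wild-type cells. In A/A it fell from 2.52 and 2.63 to 1.86 and 1.73 (adjusted p = 0.0352, difference -1.82 ± 0.25). The genotypes thus moved in opposite directions, and treated and untreated arrays did not overlap within either genotype. The treated A/A levels lay within the untreated wild-type range. Eif1a, which helps start codon scanning, rose 2.86-fold in wild-type cells against an A/A response of 0.03 (difference -1.49 ± 0.17), and Eif5, the GTPase activator of eIF2, differed by -1.41 ± 0.30. Of 22 mitochondrial proteases and chaperones 11 were lower and 0 higher, and 8 held, or 5 without untreated wild-type replicate 3, treated wild-type replicate 4, untreated A/A replicate 2 or treated A/A replicate 2. Hspa9, the mitochondrial HSP70, differed by -1.96 ± 0.24, the protease Lonp1 by -1.73 ± 0.14 and the cochaperone Dnaja3 by -1.34 ± 0.19. Lonp1 stood between 5.35 and 5.65 on the untreated and between 7.20 and 7.44 on the treated wild-type arrays, and between 5.40 and 5.58 on the 4 A/A arrays.

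ER protein-folding genes kept a larger share of their response. Of 35 ER chaperones and folding enzymes 32 rose in wild-type cells and 21 in A/A, with medians of 1.51 and 0.92. The difference was called lower for 16 and higher for 2, and 11 and 2 held (median -0.58). The 11 became 7 without untreated A/A replicate 2 or treated A/A replicate 1, and the 2 became 1 without any 1 of 9 of the 12 arrays. Sdf2l1, an ER quality-control cochaperone, stood at 2.12, 1.93, 1.83 and 1.96 untreated and at 6.34, 6.27, 6.77 and 6.76 treated in wild-type cells. In A/A it went from 2.18 and 2.29 to 4.81 and 4.84, a rise of 6.02-fold (adjusted p = 2.49e-06) against 23.8-fold. No treated array overlapped an untreated one, and the A/A pair lay below every treated wild-type array (difference -1.99 ± 0.24, adjusted p = 6.72e-05). Hyou1, a large ER chaperone of the HSP70 family, rose 3.04-fold against 11.9-fold (difference -1.97 ± 0.21), and Creld2 rose 4.2-fold against 10.6-fold (difference -1.34 ± 0.17). Dnajc3, the ER cochaperone p58IPK, rose 2.75-fold against 5.86-fold (difference -1.09 ± 0.18).

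Hspa5, which encodes the main ER chaperone BiP, came close to its wild-type level. It stood at 6.74, 6.92, 6.93 and 7.09 untreated and at 9.23, 9.07, 9.05 and 9.07 treated in wild-type cells, and at 7.49 and 7.60 then 9.14 and 9.14 in A/A cells. The treated arrays of both genotypes overlapped and the untreated A/A arrays lay above the untreated wild-type ones, a gap that cannot be told apart from the array run. Its difference of -0.59 ± 0.17 (adjusted p = 0.0226) was called against the Atf4-series and not against the Perk-series (adjusted p = 0.119). The call over all wild-type arrays ended without any 1 of the A/A arrays (adjusted p 0.0519 to 0.108) and with quantile normalization (-0.42, adjusted p = 0.0513). Xbp1, the target of IRE1, rose 2.25-fold in A/A and 3.52-fold in wild-type cells; its difference of -0.64 ± 0.20 (adjusted p = 0.0343) did not hold and was no longer called in 8 of 12 fits that left out an array (adjusted p up to 0.174).

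Genes of ER-associated degradation, which returns misfolded proteins to the cytosol, moved less. Of 27 tested, 7 were lower and 0 higher in A/A and 5 held, or 3 without treated A/A replicate 2 (medians 0.64 in wild-type and 0.47 in A/A cells). Herpud1, a membrane component of the degradation complex, stood at 2.50, 2.31, 3.0 and 3.09 untreated and at 6.37, 6.51, 7.05 and 7.06 treated in wild-type cells. In A/A it rose from 2.85 and 3.08 to 5.01 and 5.05, 4.18-fold against 16.3-fold, and the treated A/A arrays fell between the untreated and treated wild-type arrays (difference -1.96 ± 0.20, adjusted p = 1.82e-05). Sel1l, the adaptor of the HRD1 ligase, rose 1.82-fold against 9.31-fold (difference -2.35 ± 0.24). Derl3, a degradation channel protein, rose from between -4.63 and -2.71 to between 2.34 and 6.07 in wild-type cells. It was not well above background on any of the 4 A/A arrays (difference -6.06 ± 0.47).

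The IRE1-XBP1 dependent genes and the secretory machinery kept much of their response. Of 20 tested IRE1-XBP1 genes 17 rose in wild-type cells and 13 in A/A, with medians of 1.55 and 1.11; 6 were lower and 1 higher in A/A, and 4 and 1 held. Without any 1 of untreated wild-type replicate 3, treated wild-type replicates 3 and 4, untreated A/A replicate 2 and both treated A/A arrays, 2 of the 4 held. Of 52 genes of translocation and secretory traffic 31 rose in wild-type cells and 20 in A/A, with medians of 0.52 and 0.53. There 2 were lower and 1 higher, and 1 held, which is below the 18.2% of all tested genes called. The list's median difference of -0.02 was above 0 in 4 of the alternative settings and lay between -0.06 and 0.11 over all of them.

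The genes with the strongest A/A responses among those that rose in both genotypes and had no called difference were led by ER genes: of the 10 strongest, Dnajb9, Ero1b, Selenos, Syvn1, Spcs2 and Alg2 encode ER proteins. Dnajb9, the BiP cochaperone ERdj4 and a classic XBP1 target, stood at 0.82, 0.58, 0.26 and 0.31 untreated and at 3.92, 3.78, 3.88 and 3.84 treated in wild-type cells. In A/A it went from 0.24 and 0.28 to 3.15 and 3.31. It rose 7.85-fold in A/A and 10.3-fold in wild-type cells, and the difference was -0.39 (95% interval -0.77 to -0.02, adjusted p = 0.140). The treated A/A arrays were below all treated wild-type arrays, and against the Perk-series alone the difference was called (-0.60, adjusted p = 0.0333). Ero1b, an oxidase that drives disulfide formation, rose 8.24-fold and 11.4-fold (interval of the difference -1.14 to 0.20). Selenos, a selenoprotein of the degradation complex, rose 4.24-fold and 5.07-fold (interval -0.62 to 0.10), and its treated A/A levels of 6.01 and 5.93 overlapped the treated wild-type levels of 5.97 to 6.13.

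Syvn1, the HRD1 ubiquitin ligase itself, rose 3.55-fold in A/A and 4.43-fold in wild-type cells (interval -0.80 to 0.15). Against the Atf4-series its difference was 0.06 and against the Perk-series -0.71 (adjusted p = 0.0111). Spcs2, a signal peptidase subunit, rose 3.35-fold and 3.98-fold (interval -0.60 to 0.10). Alg2, a mannosyltransferase of the N-glycan precursor, rose 3.22-fold and 2.55-fold (interval 0.05 to 0.63, adjusted p = 0.0990), and Cdk2ap2 rose 3.88-fold and 3.35-fold (interval -0.19 to 0.61). Hid1, which acts in the formation of secretory granules, rose 6.11-fold and 13.7-fold (interval -2.11 to -0.21, adjusted p = 0.0853), with a difference of -1.91 against the Atf4-series and -0.41 against the Perk-series. A missed threshold does not show equal responses, and the intervals bound how far each could differ.

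**Figure D3:**
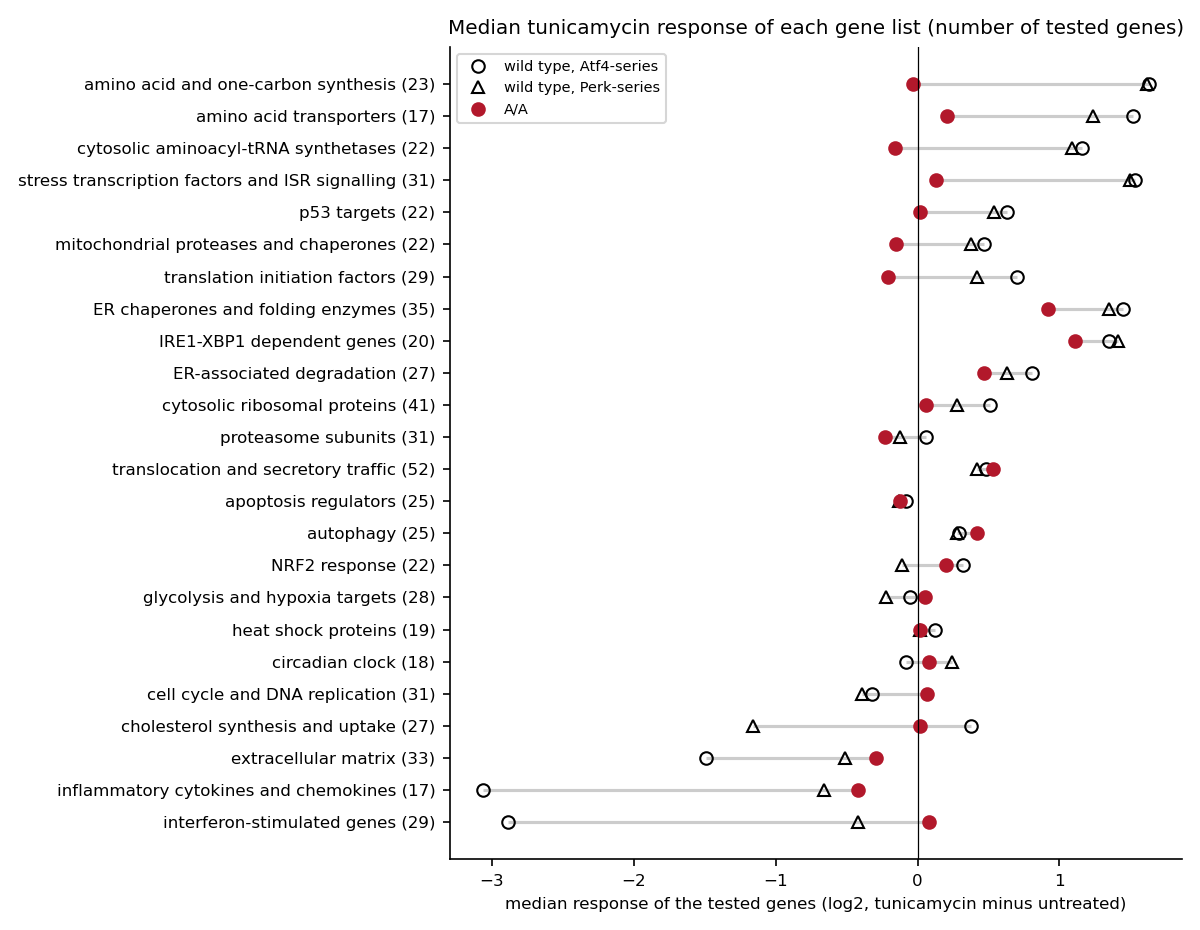
Each row is 1 of the 24 gene lists with its number of tested genes, and the x axis gives the median response to tunicamycin (log2) in the Atf4-series wild type (open circle), the Perk-series wild type (open triangle) and A/A cells (red). Rows are ordered by the median difference between A/A and all wild-type arrays. The top rows show amino acid, transporter and tRNA synthetase genes with A/A medians near 0 and wild-type medians above 1, and the lists at the bottom show wide gaps between the wild-type lines.

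Genes with the most negative held differences were mostly dim outside treated wild-type cells. Car6, a secreted carbonic anhydrase, rose in wild-type cells from -4.93, -4.45, -1.22 and -1.47 to 5.92, 5.60, 5.16 and 5.25. On the 4 A/A arrays it lay between -6.44 and -6.27 and was not well above background (difference -8.44 ± 1.05, adjusted p = 8.76e-05). Cox6a2, a muscle form of a cytochrome oxidase subunit, rose from between -4.24 and -0.62 to between 3.99 and 4.38 in wild-type cells and was not well above background on any A/A array (difference -6.69 ± 0.92). Avil, the actin-binding protein advillin, rose at least 71.9-fold in wild-type cells, and Akr1b7, an aldo-keto reductase, rose at least 21.9-fold. Both were not well above background on the untreated wild-type and all A/A arrays. Those bounds set the mean of the treated arrays against the higher, on each untreated array, of the gene's own signal and the lowest signal of any probe well above background.

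Cdsn, an adhesive protein of epidermal cell junctions, was measured well above background on all 12 arrays. It rose from -1.01, -0.93, 0.13 and -0.03 to 3.03, 3.72, 4.71 and 4.70 in wild-type cells, while in A/A cells it fell from -0.67 and -0.57 to -1.95 and -1.77 (adjusted p = 0.0207; difference -5.74 ± 0.35, adjusted p = 1.65e-07). Cyp2c23, a cytochrome P450, rose at least 19.2-fold in wild-type cells and fell at least 1.79-fold in A/A cells (adjusted p = 0.0164; difference -7.63 ± 0.75). Bhlha15, the secretory cell factor MIST1, differed by -6.14 ± 1.07, and the untreated A/A arrays read -2.0 and -6.38, far apart for a pair. Hmx3, a homeobox factor, differed by -7.58 ± 0.97 and was well above background in untreated but not in treated A/A cells (A/A response -2.60, adjusted p = 0.0804).

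Single genes of further stress lists were lower in A/A. Of 22 tested p53 targets 6 were lower and 1 higher in A/A, and 3 and 1 held; without any 1 of the A/A arrays 3 were lower. Gadd45a, a growth-arrest protein, rose 12.0-fold in wild-type cells and had an A/A response of 1.04 (adjusted p = 0.0933; difference -2.54 ± 0.40). Hmox1, haem oxygenase, was the only NRF2 target lower in A/A of 22 tested; it rose 1.60-fold in A/A (adjusted p = 0.0467) against 4.76-fold (difference -1.57 ± 0.23). Hk2, a hexokinase, rose 2.02-fold in wild-type cells and had an A/A response of -1.02 (adjusted p = 0.0671; difference -2.04 ± 0.37). Sqstm1, the autophagy receptor p62, differed by -1.06 ± 0.27, and that call was lost without untreated A/A replicate 2 or treated A/A replicate 1 (adjusted p 0.0675 and 0.0645). Of 25 autophagy genes, 2 were lower and 1 higher, a smaller share than the 18.2% called over all tested genes.

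Many genes that tunicamycin lowered in wild-type cells were not lowered in A/A cells. Ccn5, a matricellular protein of the CCN family, went from 3.40, 4.61, 2.52 and 2.37 to -2.30, -1.18, -1.45 and -1.40 in wild-type cells, a response of -4.81 ± 0.45. In A/A it read -3.86 and -4.06 untreated and -3.73 and -3.96 treated (difference 4.92 ± 0.78, adjusted p = 0.000606). Its untreated A/A levels already lay below every treated wild-type level, and the part of that low start in the difference was not tested. Acat2, an acetyl-CoA acetyltransferase of the sterol pathway, had responses of -1.28 and 0.40 (difference 1.68 ± 0.24). Tk1, thymidine kinase, stood at 5.36, 5.00, 5.18 and 5.02 untreated and at 3.84, 3.72, 3.32 and 3.56 treated in wild-type cells. It stood at 5.78 and 5.84 then 5.78 and 5.68 in A/A (difference 1.45 ± 0.20, adjusted p = 0.000227), and all treated A/A arrays lay above all wild-type arrays. Of 31 tested cell cycle and DNA replication genes, 15 had fallen in wild-type cells (16.3% of all tested genes) and 0 fell in A/A (1.82% of all). The difference was called lower for 1 and higher for 3 of the 31, a smaller share than the 18.2% over all tested genes. Tk1 was the only one of the 31 that held, against 9.48% of all tested genes.

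In 145 genes both responses were called in opposite directions along with the difference. Angpt1, a ligand of the endothelial TIE2 receptor, fell from 1.11, 1.83, 0.40 and 0.47 to -3.14, -1.85, -3.26 and -3.11 in wild-type cells and rose from -2.06 and -1.81 to 0.89 and 0.82 in A/A (6.92-fold; difference 6.59 ± 0.59, adjusted p = 7.80e-06). The untreated A/A and treated wild-type arrays were the low ones, and their ranges overlapped. Gas1, a growth-arrest surface protein, had a response of -2.92 in wild-type cells and rose 4.12-fold in A/A (difference 4.96 ± 0.44; its other probes gave 1.06 to 5.60). Tmem119 had responses of -2.99 and 1.61 (difference 4.60 ± 0.46). Rgcc, a regulator of the cell cycle, rose 6.01-fold in A/A against a wild-type response of -1.29, and Mrgprf, an orphan receptor, 6.08-fold against -1.27.

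The responses of 3 glutathione transferase genes, picked by the size of their differences and not from a list of the family, were higher in A/A cells. Gsta4 had responses of -1.33 in wild-type and 1.45 in A/A cells (difference 2.78 ± 0.32), and Gstm1 of -1.23 and 0.93 (difference 2.16 ± 0.30). Mgst2, a microsomal family member, had a wild-type response of -3.54 and an A/A response of 1.96 that was not called (adjusted p = 0.118; difference 5.5 ± 0.81). Each of the 3 held. Gsta4 and Gstm1 were the only 2 of the 22 tested NRF2 targets called higher, with 1 lower, a smaller share than the 18.2% over all tested genes. Gstp1, a glutathione transferase gene of that same list, was not called. In the circadian clock list of 18 tested genes 4 were lower and 3 higher, and 2 of each held. The 4 became 2 without untreated A/A replicate 2 or treated A/A replicate 1, and the 2 held higher became 1 or 0 without any 1 of 9 of the 12 arrays. Ciart, a clock repressor, rose 6.25-fold in wild-type cells against an A/A response of 0.02 (difference -2.62 ± 0.58), and Dbp, a clock output factor, went the other way (responses -1.18 and 0.78, difference 1.96 ± 0.47).

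Inflammatory, interferon and matrix genes depended on which wild-type line was used. Ccl7, a monocyte-attracting chemokine, stood at 6.53 and 6.59 in the untreated Atf4-series and at 2.71 and 2.74 in the untreated Perk-series. Treated arrays read -1.22, 0.74, 0.83 and 0.88, and A/A arrays -1.84 and -1.86 then -0.85 and -0.77. The difference was 7.84 against the Atf4-series and 2.91 against the Perk-series, and held. Cxcl1, a neutrophil chemokine, likewise differed by 7.29 and 2.50. Il6 did not hold: its difference was 7.06 against the Atf4-series, where untreated cells read 4.10 and 4.17. Against the Perk-series the difference was -0.38, and no Perk-series or A/A array was well above background. Mmp3, a matrix protease, differed by 7.99 and 2.19, the latter with an adjusted p of 0.129.

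Of 29 interferon-stimulated genes 18 fell in wild-type cells and 0 in A/A, against 16.3% and 1.82% of all tested genes. Yet their median response was -2.89 in the Atf4-series, -0.42 in the Perk-series and 0.08 in A/A. The difference was called lower for 0 and higher for 4, and held for 2. Both shares were below those over all tested genes, 18.2% called and 9.48% held. Without untreated A/A replicate 1 or treated A/A replicate 2 the difference was called for 2. The wild-type lines themselves differed for 15 of the 29 (7.88% of all tested genes). Ifit3b, an interferon-induced gene outside that list, held at 5.47 ± 0.99, but its treated Perk-series arrays were not well above background. Cholesterol genes had medians of 0.38, -1.16 and 0.02, the lines differing for 15 of 27. Their difference was called lower for 0 and higher for 3, also a smaller share than the 18.2%, and 1 gene of the list, Acat2, held. For 33 extracellular matrix genes the medians were -1.49, -0.51 and -0.29, and 2 were lower and 4 higher in A/A, the same share as the 18.2% over all tested genes. Of these 1 held, the lines differed for 7 of the 33, and the 4 became 0 to 2 without any 1 of the A/A arrays.

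Fibroblast markers moved with these genes. Their median response was -0.98 in wild-type and 0.10 in A/A cells. Of the 16, 10 fell in wild-type and 0 in A/A cells, against 16.3% and 1.82% of all tested genes. With so low a share in A/A, 0 of 16 does not set the markers apart. Their summed linear signal (in units of the 75th percentile signal) went from 962 to 1142 down to 665 to 793 in the Atf4-series. It went from 1358 to 1377 down to 884 to 890 in the Perk-series, and from 1745 to 1783 to 1565 to 1690 in A/A. Lum was well above background only in the untreated Atf4-series. The summed muscle markers went from 173 to 276 down to 47.6 to 70.1, from 382 to 408 down to 308 to 333, and from 629 to 634 down to 541 to 548 in the same order. In bulk RNA fewer cells of a type and less RNA per cell cannot be told apart, and the part of either marker list in the results above was not tested.

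Artificial activation of PERK gave a readout in other cells and arrays. AP changed 589 genes in Fv2E-PERK cells (4.08%), 404 upward (2.8%) and 185 downward (1.28%). Of the 786 genes that held lower in A/A, AP raised 158 (20.1%) and lowered 2, and 694 (88.3%) had a response above 0 against 59.0% of all tested genes. Of the 584 genes that held higher, AP lowered 75 (12.8%) and raised 13, and 25.7% had a response above 0. The median AP response was 0.37 in the lower genes, -0.31 in the higher genes and 0.08 over all. Taken without regard to A/A, AP raised 268 of the 3065 genes raised in the wild type (8.74%). It raised 154 of the 790 raised there at least 2-fold (19.5%), near the 20.1% above. Of the 1071 lowered at least 2-fold, AP lowered 77 (7.19%) and raised 9. These sets include genes that held, and whether the A/A difference adds to the AP share was not tested. No array of this readout entered the choice of genes, although the Fv2E-PERK and A/A arrays belong to the same scan run and all arrays share the model's estimate of spread.

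Among genes that held, several had large AP responses. Trib3 had an AP response of 4.0 (adjusted p = 2.20e-06), Ddit3 of 2.32, Ppp1r15a of 2.12, Cth of 2.13, Vldlr of 2.98 and Car6 of 8.02. Gdf15, which did not hold, had one of 4.21 (adjusted p = 0.00177). ER genes with a partial loss in A/A often did not pass the test with AP. The AP response was -0.04 for Sdf2l1 (adjusted p = 0.960), 0.29 for Hyou1, 0.18 for Creld2 and 0.06 for Dnajc3, whereas Herpud1 rose by 1.76 on the log2 scale (adjusted p = 1.36e-05). By list, AP raised 12 of 31 ISR genes, 8 of 23 amino acid synthesis genes, 6 of 17 transporters and 6 of 22 tRNA synthetases. It raised 1 of 35 ER chaperones, near the 2.8% raised over all tested genes. Among genes that turned in A/A, Angpt1 had an AP response of -2.51 (adjusted p = 0.00841) and Gstm1 of -1.56 (adjusted p = 0.00189), both opposite to A/A cells.

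**Figure D4:**
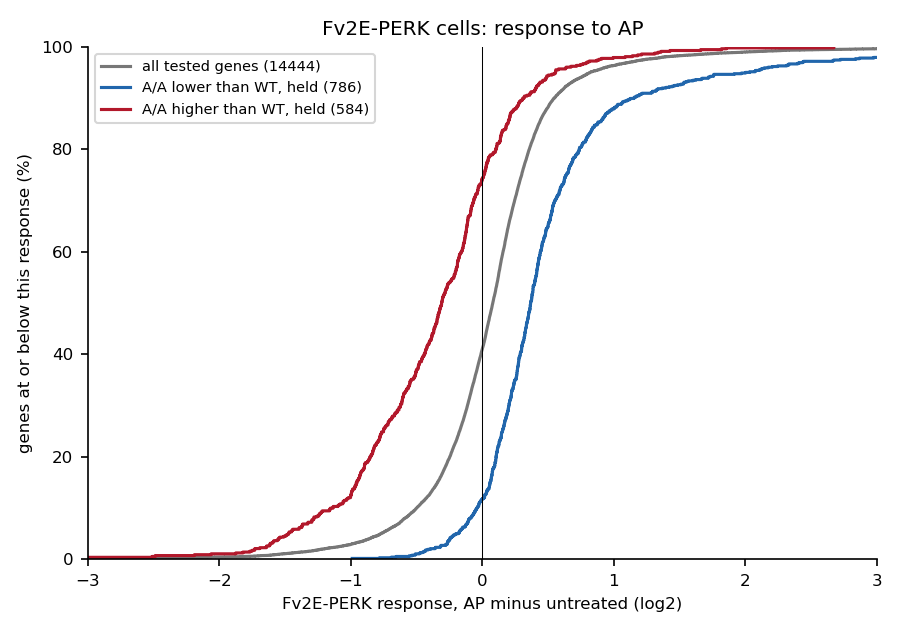
Cumulative share of genes (y axis, %) at or below each response to AP in Fv2E-PERK cells (x axis, log2, AP minus untreated, shown from -3 to 3), for all 14444 tested genes (grey), the 786 that held lower (blue) and the 584 that held higher in A/A (red). At a response of 0 the blue curve is lowest and the red highest, as 88.3%, 59.0% and 25.7% of the blue, grey and red genes had a response above 0.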

How the data were processed

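Scans of single-colour arrays were quantified in Agilent Feature Extraction 10.7.1.1, as the submitters' processing notes and the files state. Per the file headers, the deposited processed signal of a spot is a linear intensity after background subtraction, with flags coded 0 or 1. The authors' deposited table holds log2 values of the same arrays, of which 99.3% lay within 0.001 of log2 processed signal after a shift per array and per probe. The baseline of that centring stayed unknown, and its column medians ran from -0.32 to 0.49.

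Control spots and outlier spots were left out, and no spot was saturated. The 75th percentile signal ran from 111 to 418 units, with 45.1% to 58.2% of probes above background by the scanner's flag; the number of arrays limits the precision. Of 55681 probes 26574 were named through RefSeq accessions (GRCm38.p6), 57 with conflicting designs were left unnamed, and each gene took its brightest probe. Genes flagged well above background throughout at least 1 group were tested, which left 14444 of 20138. Limma 3.58.1 (R 4.3.3) fitted all 24 arrays with 10 group means and a run term (13 residual and 2.23 prior degrees of freedom), and 12 group means for single wild-type lines. Tests were two-sided and checked on simulated data. Replicate numbers did not pair the arrays and were not used as a block.

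The genes and lists were chosen with earlier results of these data known. Named genes were the 12 most negative and 12 most positive held differences, 19 known stress genes, the 3 largest and the smallest difference of each list, the 10 largest A/A responses shared with wild type, the 10 largest opposite responses, and the 8 list genes with the largest gap between lines; the text takes its examples from these. Alternatives were quantile normalization, normexp, other probe filters and summaries, the deposited table, the 12 arrays alone, array weights, slide or replicate blocks and single arrays left out. A floor on dim signals and scan time as a block were chosen after seeing the data.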

Additional observations from a re-analysis of the deposited data

Results flagged for a closer look

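The wild-type lines differed in their own response to tunicamycin (limma, adjusted p under 0.05) for 14 of the genes described above. On the log2 scale, the Atf4-series minus the Perk-series response was -1.91 for Atf3, -0.80 for Ppp1r15a, -0.77 for Syvn1 and -1.19 for Hk2. It was 1.84 for Chac1, 1.55 for Derl3, 1.5 for Hid1, 3.90 for Car6 and 2.89 for Cox6a2. Among genes lowered by tunicamycin it was -3.28 for Mgst2, -4.93 for Ccl7, -4.78 for Cxcl1 and -5.79 for Mmp3, and it was -7.44 for Il6, with responses of -7.00 in the Atf4-series and 0.45 in the Perk-series.

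In 11 of 150 sets of 4 wild-type levels 1 array stood apart from the other 3 by Dixon's criterion, which chance meets in about 1 of 20 sets of 4 like values. These sets are not like values, since each joins 2 lines whose median SD per gene was 0.231 to 0.235 in the Atf4-series and 0.0721 to 0.0873 in the Perk-series, so that rate does not apply to them. All 11 lay on Atf4-series arrays. Among treated arrays, replicate 1 read -0.66 for Fgf21, 9.23 for Hspa5, 3.26 for Ero1b and -1.22 for Ccl7, and replicate 2 read 4.02 for Cth, 0.67 for Avil and -1.85 for Angpt1. On untreated replicate 1 the levels were 2.77 for Sesn2, 4.59 for Xbp1, 3.84 for Spcs2 and 1.70 for Gas1.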

How the results depend on the processing

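Of 75 genes described, 58 kept the call and direction of the difference in every alternative run, and none reversed. Counts moved by over 1.5 times as follows. With array weights the difference was called for 6774 genes over all wild-type arrays and 6623 against the Perk-series, 2314 genes held, and responses were called for 5384 genes in A/A and 5956 with AP. With scan time as a random block there were 3357 genes against the Perk-series, 1991 in A/A and 1692 with AP. Normexp left 436 genes in A/A, and no filter on dim probes left 369 with AP. The cause was not tested. With a replicate block 350 genes were called in A/A and 283 with AP, while the difference was called for 1986 genes and held for 1199; the deviations of same-numbered arrays correlated at 0.056 in A/A and at -0.006 and 0.044 within the wild-type lines, so the numbers were not taken as pairs. That block ended the call of Gdf15, Sesn2, Aldh1l2, Hspa5, Xbp1, Cxcl1 and Mmp3. Leaving out single arrays gave 1405 to 2775 genes for the difference, 2539 to 4237 against the Atf4-series, 1057 to 2212 against the Perk-series, 786 to 1514 held, 545 to 1661 between the lines, 4703 to 5165 in wild type, 175 to 892 in A/A and 449 to 745 with AP. Dim signals limit Fgf21, Slc7a11, Derl3, Car6 and the other genes below background in A/A, whose differences are partly set by the scanner's lowest signals.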

Other observations

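Over all tested genes 18.2% had a called difference in either direction. In wild-type cells 21.2% rose and 16.3% fell, and in A/A cells 3.08% rose and 1.82% fell. Cytosolic ribosomal protein genes had a median response of 0.38 in wild-type and 0.06 in A/A cells, 29 of 41 rising in wild-type and 0 in A/A cells, yet the difference was called for 2 and held for 0. Their median difference of -0.31 became -0.06 with quantile normalization. Of 31 proteasome subunits 3 were lower and 0 higher in A/A, with a median of -0.18 that became 0.06 with quantile normalization. Of 19 heat shock proteins 0 were lower and 1 higher. The share called was above 18.2% in 3 other lists. Of 25 apoptosis regulators 3 were lower and 4 higher, and of 28 glycolysis and hypoxia genes 3 and 6. Of 17 inflammatory cytokines and chemokines, 11 of which fell in wild-type and 2 in A/A cells, 2 were lower and 5 higher. Without any 1 of the A/A arrays the 4 became 0 or 1, the 6 became 2 and the 5 became 2 or 3; without treated wild-type replicate 2 the 4 became 2.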
